A study of Mus musculus and Homo sapiens with 32 samples.

Results

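The immortalised human kidney cell line HK-2 was compared with and without a knockout of PCMT1. The genes described were chosen by table and label: they are all 379 genes of the HK-2 table, measured in the 3 libraries labelled PCMT1 knockout (KO) and the 3 labelled wild type (WT). These are 6 of the 32 libraries of a series on PCMT1 in renal fibrosis, which also covers whole mouse kidney with and without Pcmt1 (4 libraries per genotype) and 18 libraries of Pcmt1 fl/fl and tKO mice in an obstruction experiment. The labels give both HK-2 groups the same cell line, differing in genotype, and name no treatment for either. HK-2 derives from adult proximal tubule cells immortalised with papillomavirus oncogenes. The sample titles call the WT group CTL, and within each group the count headers share the same prefix, whose meaning is not given. The labels do not say how the gene was disrupted, whether either group is 1 clone or whether the libraries came from separate cultures. If the libraries of either group come from 1 clone, differences between clones and effects of the knockout cannot be told apart. Any p-value then reflects just the spread among the libraries at hand, which may be technical.

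PCMT1 encodes protein-L-isoaspartate O-methyltransferase. With age and stress, asparagine and aspartate residues of proteins turn into isoaspartate, which kinks the protein backbone, and this enzyme uses S-adenosylmethionine to start the repair of such residues. The series asks how its loss bears on TGF-β signalling, in which TGF-β1 binds the receptor TGFBR2, TGFBR1 is recruited and phosphorylates SMAD2 and SMAD3, and these switch on matrix and protease inhibitor genes. Proximal tubule cells are a common site of damage in obstructed kidneys, and long-lasting damage there is followed by matrix deposition.

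The table is a list of changed genes and not a transcriptome. Each of its genes has a mean FPKM (fragments per gene length and sequencing depth, a level that can be compared between genes) that differs between the groups by at least 2.00-fold, and a mean of at least 1.005 FPKM in the higher group. Library depth was 13785479 to 16343543 reads, of which the listed genes held 2.44% to 4.07%. Of the 379 genes 215 were listed as higher and 164 as lower in the knockout. Just inside the threshold stood PDZK1IP1 with a ratio of means of 2.000, PLLP with 2.002 and ASNSD1 with 2.002, and genes just outside it were not analysed here. In edgeR's quasi-likelihood test 365 genes had enough counts to be tested and all of them passed an adjusted p of 0.05 (percent called 100, with 57% higher and 43% lower), and 95.3% of the 379 genes showed no overlap between knockout and wild-type libraries. The listing used this same contrast, so these shares follow from the selection and nothing is read from them. Scaling on the listed genes alone in place of library depth shifted all log2 fold changes down (median shift −0.42 with TMM, −0.58 with column totals and −0.82 with RLE) and left 183, 160 and 103 higher calls of 208, with 158 lower calls each, while no gene tested under both scalings changed direction. Sizes are given as log2 fold changes of knockout against wild type with their standard errors (SE) from edgeR, as a description. Levels are FPKM, knockout before wild type, either for replicates 1, 2 and 3 or as mean ± SD (n = 3).

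PCMT1 itself is not listed, so the knockout cannot be checked in this table. None of the 28 genes of a list of TGF-β ligands, receptors, Smads and latency proteins is listed, nor any of 15 defining proximal tubule markers, 9 fibroblast markers or 6 endothelial markers. One general epithelial marker of 6 is listed (KRT7) and 1 leukocyte marker of 7 (CSF1R). The labelled cell type therefore cannot be checked against its markers here. A gene absent from the list may be unchanged, changed by less than the threshold or below the level limit.

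Most listed genes stood at low levels. The median over the 6 libraries was 2.01 FPKM, 189 genes (49.9%) lay under 2 FPKM and 44 over 10 FPKM. Among the few genes with a mean over 100 FPKM were FN1, MMP1 and TGFBI, all of them secreted proteins of the extracellular matrix and its turnover. Of the genes higher in the knockout 142 differed by under 3-fold, and of those lower 119. The median log2 fold change was 1.32 in the higher and −1.26 in the lower genes. FN1 alone took 2.32% to 2.60% of all reads in the knockout libraries and 1.01% to 1.31% in the wild-type libraries.

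**Figure D1:**
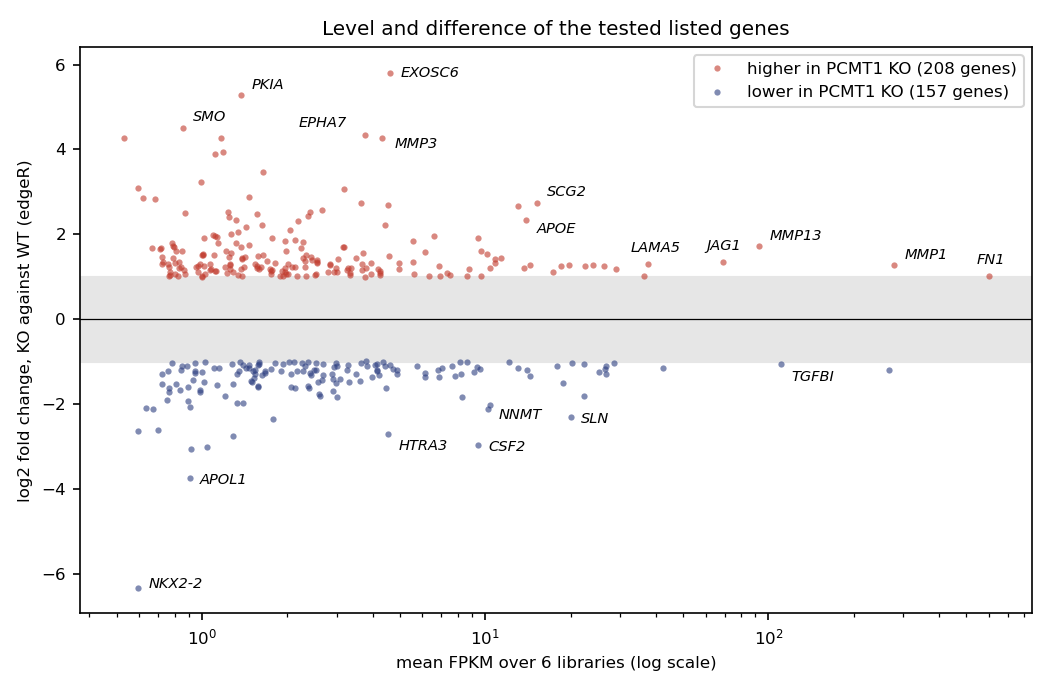
Each point is 1 of the 365 tested genes, placed by its mean FPKM over 6 libraries (x axis, log scale) and its log2 fold change of knockout against wild type (y axis). The grey band spans log2 −1 to 1 and has points only at its edges, because the listing required a 2-fold difference of means. FN1, MMP1 and TGFBI, above 100 FPKM, have log2 fold changes of 1.01, 1.27 and −1.06, and the largest differences belong to genes at low levels.

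Matrix-degrading proteases were among the most abundant genes that were higher in the knockout. MMP1 (ENSG00000196611, GRCh38 chromosome 11, 102789919 to 102798160), the interstitial collagenase, stood at 381, 413 and 385 FPKM in the knockout libraries and 163, 167 and 159 FPKM in the wild-type libraries (log2 1.27, SE 0.08). MMP13, another collagenase, stood at 130.1, 148 and 149 FPKM against 44.2, 43.2 and 41.3 FPKM (log2 1.73, SE 0.09). For MMP3, the stromelysin that cleaves many matrix proteins and activates other metalloproteinases, the values were 8.65, 8.55 and 7.53 FPKM against 0.287, 0.445 and 0.515 FPKM (log2 4.28, SE 0.22). In all 3 genes each knockout library lay above each wild-type library, and 95.3% of all listed genes likewise showed no overlap. MMP3 was under 1 FPKM in each wild-type library. The 3 genes lie close together within 102789919 to 102955732 of chromosome 11. All 5 genes of a list of metalloproteinases, ADAM and ADAMTS proteases and their inhibitors that are listed were higher, beside 57% of all tested genes. Outside that cluster they were MMP16, a membrane-anchored member (2.1 ± 0.238 against 0.645 ± 0.117 FPKM), and the aggrecanase-related ADAMTS15 (7.96 ± 0.763 against 3.11 ± 0.29 FPKM). Carboxypeptidase A4 (CPA4) stood at 14.6 ± 0.294 against 4.8 ± 0.122 FPKM (log2 1.6, SE 0.09), and PAPPA, which cleaves insulin-like growth factor binding proteins, at 5.64 ± 0.0469 against 2.24 ± 0.504 FPKM (log2 1.33, SE 0.17). TLL1, a tolloid protease that processes procollagen, and HPN, the membrane serine protease hepsin, were also higher (log2 1.05 and 1.22).

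Some genes of proteases and their inhibitors went the other way. In a group of 14 such genes, made after their values were seen, 9 were higher and 5 lower. Among all tested genes 57% were higher. SERPINA1 and HTRA3 are given as examples of the lower genes. SERPINA1, the elastase inhibitor α1-antitrypsin, stood at 1.34 ± 0.123 against 2.72 ± 0.0673 FPKM (log2 −1.02, SE 0.11). HTRA3, a secreted serine protease, showed the widest difference among the lower proteases, with 1.35, 1.06 and 1.22 FPKM against 7.52, 7.64 and 8.48 FPKM (log2 −2.7, SE 0.14). The groups did not overlap in SERPINA1 or HTRA3, as in 95.3% of all listed genes.

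Structural matrix genes were split. Fibronectin (FN1, ENSG00000115414, chromosome 2, 215360440 to 215436073), the most abundant listed gene, had 769.7, 773 and 862 FPKM in the knockout libraries and 433, 429 and 335 FPKM in the wild-type libraries (log2 1.01, SE 0.12). LAMA5, the α chain of the laminins of mature tubule basement membranes, stood at 53.4, 48.8 and 57.5 FPKM against 21.4, 19 and 24.5 FPKM (log2 1.3, SE 0.12). EMILIN2, a glycoprotein of elastic fibre surfaces, had 7.59, 6.82 and 7.46 FPKM against 1.53, 1.49 and 1.7 FPKM (log2 2.21, SE 0.11). In FN1, LAMA5 and EMILIN2 the groups stayed apart, as in 95.3% of all listed genes. Among them EMILIN2 had the largest log2 fold change. FRAS1, a protein of embryonic epithelial basement membranes, the integrin ligand EDIL3 and ANOS1, the matrix protein anosmin, were higher by log2 1.34, 1.18 and 1.61. COL14A1, a fibril-associated collagen, was the single collagen chain listed, at 1.39 ± 0.123 against 0.667 ± 0.0796 FPKM.

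Other matrix genes were lower. TGFBI (ENSG00000120708, chromosome 5, 136028988 to 136063818), a secreted adhesion protein named for its induction by TGF-β, stood at 82.1, 62.9 and 71.4 FPKM in the knockout libraries and 146, 150.1 and 153 FPKM in the wild-type libraries (log2 −1.06, SE 0.11). Nephronectin (NPNT), a ligand of integrin α8β1 in kidney development, had 16.4, 13.2 and 13.9 FPKM against 28.7, 28.2 and 33.6 FPKM (log2 −1.06, SE 0.12). Fibulin-2 (FBLN2) stood at 2.19 ± 0.275 against 6.72 ± 0.79 FPKM (log2 −1.62, SE 0.14), tenascin-C (TNC) at 1.19 ± 0.11 against 2.43 ± 0.121 FPKM (log2 −1.03, SE 0.11) and LAMA1, the laminin α chain of early basement membranes, at 1.53 ± 0.0265 against 3.8 ± 0.142 FPKM (log2 −1.31, SE 0.09). The pair of laminin chains thus differed in opposite directions, LAMA5 higher and LAMA1 lower. Of the 6 listed genes in a list of 52 further matrix proteins and crosslinkers 3 were higher (FN1, EMILIN2, EDIL3) and 3 lower (NPNT, FBLN2, TNC). NDST1, which sulphates heparan sulphate chains, had 12.7, 29.5 and 13.7 FPKM against 20.1, 46.5 and 47.9 FPKM, so its groups overlapped, and its call was lost when KO replicate 1 or 3 or WT replicate 2 or 3 was left out (log2 −1.03 with all libraries, −0.82 to −0.87 without one of them).

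The listed integrins were likewise divided. ITGB6, the epithelial integrin chain that releases latent TGF-β, stood at 3.79, 3.38 and 3.68 FPKM in the knockout and 9.18, 8.63 and 8.13 FPKM in wild type (log2 −1.26, SE 0.10). ITGB2, a chain known mainly from leukocytes, was at 0.229 ± 0.0455 against 1.85 ± 0.583 FPKM (log2 −3.01, SE 0.28). ITGA2, the α chain of a collagen receptor, was higher with 1.48, 0.916 and 2.04 FPKM against 0.313, 0.689 and 0.542 FPKM (log2 1.51, SE 0.37), and its libraries spread more widely than those of ITGB6.

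Of a list of direct TGF-β and YAP targets, TGFBI and CNN1 were lower. CNN1 encodes calponin, an actin-binding protein of contractile cells, and stood at 0.377, 0.498 and 0.532 FPKM against 1.29, 1.5 and 1.73 FPKM (log2 −1.68, SE 0.20). ACTA2, smooth muscle α-actin and the usual marker of myofibroblasts, had 0.112, 0.159 and 0.454 FPKM in the knockout libraries and 1.12, 1.03 and 0.942 FPKM in the wild-type libraries (log2 −2.08, SE 0.43, and −2.9 without KO replicate 3). CNN1 and ACTA2 are the 2 listed genes of 20 in a list of fibroblast and myofibroblast genes, and both stood near or under 1 FPKM, so their levels rest on few reads. BAMBI, a pseudoreceptor that damps TGF-β and BMP signalling, was higher, at 7.38, 7.43 and 7.92 FPKM against 3.65, 3.44 and 3.7 FPKM (log2 1.07, SE 0.10). FN1, a further gene often used as a TGF-β readout, was higher as given above, so the listed genes commonly tied to the pathway did not all point one way.

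**Figure D2:**
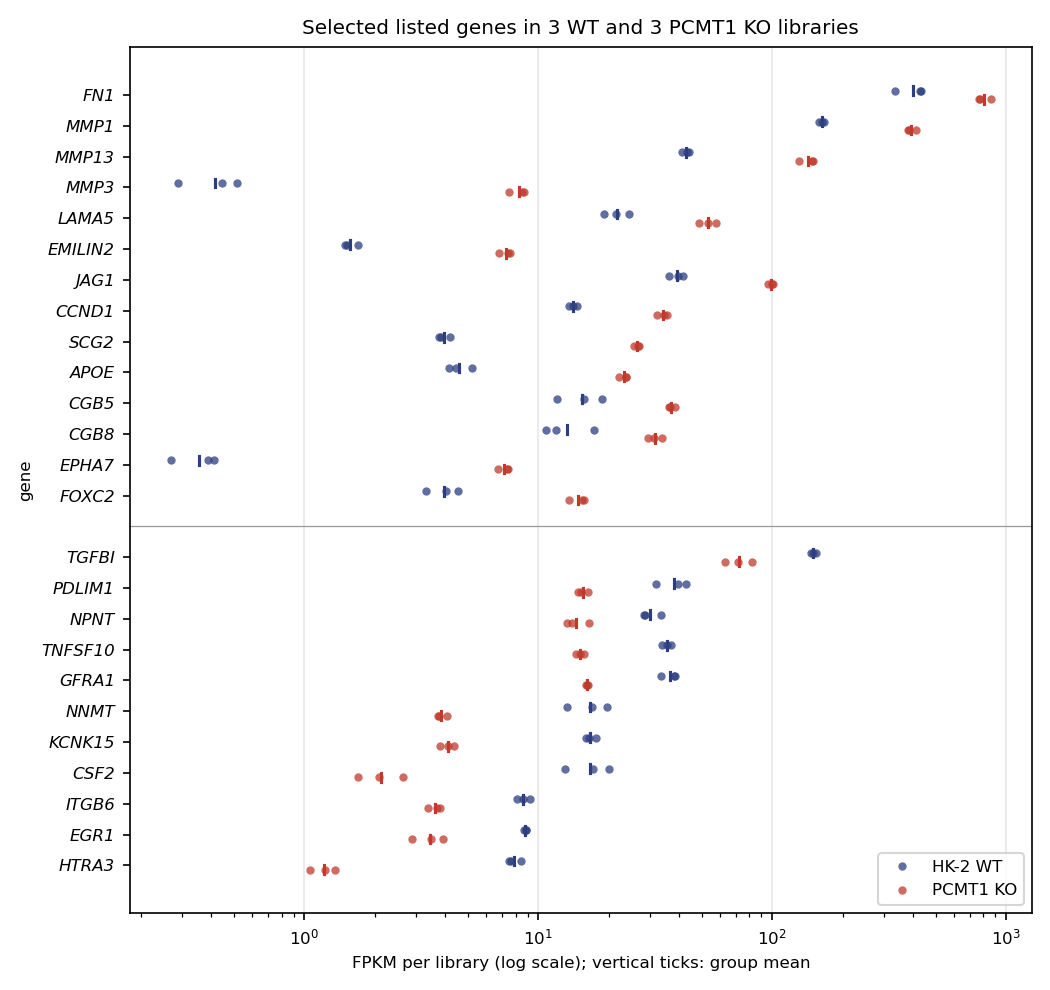
FPKM per library (x axis, log scale) of 25 listed genes, with 3 wild-type libraries in blue and 3 knockout libraries in red and a vertical tick at each group mean. Genes higher in the knockout are above the line and genes lower below it. In every gene drawn the knockout and wild-type libraries lie apart, as in 95.3% of all 379 listed genes, which follows from the selection. Knockout and wild-type means are 801 against 399 FPKM for FN1, at the top, and 1.21 against 7.88 FPKM for HTRA3, at the bottom.

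Of 56 genes in an actin and contractile list 5 are listed, 2 higher (PDLIM5 and MYO5B) and 3 lower (PDLIM1, CNN1 and ACTA2), with a median log2 fold change of −1.3. Over all tested genes 43% were lower. PDLIM5 lost its call without KO replicate 1 or 3 or WT replicate 1 (log2 0.93 to 1.31). The recycling motor gene MYO5B stood at 3.54 ± 0.165 against 0.999 ± 0.0599 FPKM (log2 1.83, SE 0.11). Other genes of the cell cortex and its membranes, grouped after their values were seen, ran both ways. Higher were the caveolar coat gene CAVIN2 (4.11 ± 0.117 against 0.719 ± 0.121 FPKM, log2 2.52, SE 0.18), the giant scaffold gene AHNAK2 (log2 1.57) and JCAD, a junction protein (log2 1.54). PDLIM1, an adaptor of actin stress fibres, was lower, with 14.8, 16.4 and 15.3 FPKM against 39.6, 31.8 and 43 FPKM (log2 −1.3, SE 0.13). DYSF, which encodes the membrane repair protein dysferlin, was lower at log2 −1.18. SLN, a small regulator of the sarcoplasmic calcium pump, had 9.91, 8.27 and 1.95 FPKM against 32.4, 31.4 and 36.1 FPKM (log2 −2.31, SE 0.50), with KO replicate 3 far below the other two.

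Few genes of epithelial junctions and barriers are listed, at low levels. From a list of claudins, cadherins and tight junction genes CLDN3 and the protocadherin gene PCDH7 (log2 1.19) were higher, and from one of keratins and desmosome genes KRT7. The cytokeratin gene KRT7 stood at 2.54, 2.57 and 2.19 FPKM against 0.863, 1.21 and 1.2 FPKM (log2 1.15, SE 0.17). CLDN3 (ENSG00000165215, chromosome 7, 73768997 to 73770270), a sealing claudin of distal nephron epithelia, had 45, 34 and 46 reads in the knockout libraries and 0, 0 and 8 in the wild-type libraries (log2 3.94, SE 0.72). CLDN3 had no read in 2 wild-type libraries, and without WT replicate 3 its fitted value was 8.37, which depends on the prior count. CNFN, a cornified envelope gene, was higher by log2 1.21.

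Signalling genes of development gave some of the clearest differences. JAG1 (ENSG00000101384, chromosome 20, 10637684 to 10673999), a Notch ligand that is raised in damaged tubules, stood at 95.5, 100.5 and 100.1 FPKM in the knockout libraries and 39.6, 41.4 and 36.2 FPKM in the wild-type libraries (log2 1.34, SE 0.08). HES7, a Notch target repressor, was lower at 0.315 ± 0.0693 against 1.18 ± 0.461 FPKM (log2 −1.9, SE 0.36). SMO, the signal transducer of the Hedgehog pathway, had 1.8, 1.23 and 1.89 FPKM against 0.0577, 0.0366 and 0.113 FPKM (log2 4.51, SE 0.37) and went from traces to a low level. Of Wnt genes, the ligand WNT9A was higher at 3.46 ± 0.274 against 1.2 ± 0.239 FPKM (log2 1.52, SE 0.19), the co-activator BCL9 and the transcription factor TCF7L1 by log2 1.01 and 1.05. DKK3, a secreted glycoprotein of the Dickkopf family made by stressed tubules, was lower, with 8.73, 8.03 and 7.55 FPKM against 19.8, 21.6 and 20.6 FPKM (log2 −1.35, SE 0.09). In a list of Wnt, Notch and Hedgehog genes 6 are listed, 4 higher (JAG1, TCF7L1, WNT9A, SMO) and 2 lower (DKK3, HES7), with a median log2 fold change of 1.2. This is close to the whole table, with 57% of tested genes higher and a median of 1.06.

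Growth factor and Ras pathway genes ran both ways. From a list of growth factor, receptor kinase and guidance families 6 genes are listed, 2 higher (EPHA7, IGFBPL1) and 4 lower (GAS6, MERTK and SEMA5A among them), with a median log2 fold change of −1.07. Over all tested genes 43% were lower. CCND1, the G1 cyclin that growth factors raise, stood at 32.3, 34.5 and 35.5 FPKM against 14.1, 13.6 and 14.6 FPKM (log2 1.27, SE 0.09). DUSP6, the phosphatase that feeds back on ERK, had 3.89, 7.19 and 5.55 FPKM against 1.69, 1.9 and 2.07 FPKM (log2 1.55, SE 0.23), while EGR1, an immediate early transcription factor also driven by ERK, had 2.88, 3.49 and 3.93 FPKM against 8.9, 8.68 and 8.84 FPKM (log2 −1.36, SE 0.14). These 2 genes of the immediate early list of 34 therefore differed in opposite directions. The exchange factor genes VAV3 and RASGRP1 were higher (log2 2.31 and 1.65), as was PIK3R1, the regulatory subunit of PI3-kinase (1.75). PKIA, the peptide inhibitor of protein kinase A, had 2.82, 2.8 and 2.44 FPKM against 0.0856, 0.035 and 0.0825 FPKM (log2 5.27, SE 0.27). GAS6 and its receptor MERTK, which clear dying cells, were both lower (log2 −1.11 and −1.02). GFRA1, a receptor for GDNF in ureteric bud outgrowth, had 16, 16.2 and 16.1 FPKM against 37.9, 38.5 and 33.6 FPKM (log2 −1.18, SE 0.08).

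Several listed genes are known from neurons and axon guidance. They were grouped here after their values were seen. Of 22 genes in this group 16 were higher and 6 lower, beside 57% higher among all tested genes. The group was made with the directions known, so nothing is read from this count. Single genes are given as examples. EPHA7 (ENSG00000135333, chromosome 6, 93240020 to 93419559), a receptor of membrane-bound ephrins, stood at 6.75, 7.42 and 7.33 FPKM in the knockout libraries and 0.387, 0.409 and 0.268 FPKM in the wild-type libraries (log2 4.34, SE 0.18). The guidance ligand genes NTN1 and SLIT2 were at 4.54 ± 0.269 against 0.758 ± 0.0876 FPKM (log2 2.58, SE 0.14) and 1.76 ± 0.116 against 0.456 ± 0.0689 FPKM (log2 1.95, SE 0.15). The neural adhesion genes CNTN6 and LRRN1 went from at most 0.159 and 0.0776 FPKM in wild type to at least 2.12 and 0.738 FPKM in the knockout. BRINP1, NPTXR and the synaptotagmin gene SYT1 were higher by log2 1.44, 1.11 and 1.2. In the other direction the guidance gene SEMA5A stood at 2.83 ± 0.172 against 6.93 ± 1.3 FPKM (log2 −1.29, SE 0.16). UNC5A and ADGRB2 were lower too, at log2 −1.29 and −1.57.

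Genes of secreted hormones were likewise grouped after their values were seen. SCG2, a granin of secretory granules, had 25.7, 26.6 and 27 FPKM in the knockout libraries and 4.18, 3.78 and 3.86 FPKM in the wild-type libraries (log2 2.75, SE 0.10), with little spread in either group. The chorionic gonadotropin β genes CGB5, CGB8, CGB3 and CGB7 and the luteinising hormone β gene LHB, neighbours on chromosome 19 between 49015980 and 49058860, were all higher. CGB5 stood at 38.3, 36.5 and 36.3 FPKM against 15.6, 12 and 18.7 FPKM (log2 1.26, SE 0.17), CGB8 at 31.6 ± 2.21 against 13.3 ± 3.47 FPKM (log2 1.24, SE 0.19) and LHB at 2.11 ± 0.61 against 0.391 ± 0.114 FPKM (log2 2.41, SE 0.36). These copies are nearly identical, so the reads may have been split between them and the single-gene values are uncertain. CGB7 moved from 1.01 to 0.61 (log2) when KO replicate 3 was left out. AGT, which encodes angiotensinogen, was higher at 1.6, 1.92 and 1.56 FPKM against 0.96, 0.425 and 0.781 FPKM (log2 1.23, SE 0.29), and AMH, anti-Müllerian hormone, was lower (log2 −1.01).

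Lists of immune genes held few listed members, most of them lower. Lower were 3 of 4 cytokine and cytokine receptor genes (CSF2, IL10RB, CSF1R, against IL4R), 2 of 3 TNF family genes (TNFSF10, TNFRSF9, against TNFRSF21), both antigen presentation genes and both genes of a complement and coagulation list (SERPINA1, F2RL2), beside 43% of all tested genes. The chemokine receptor gene CXCR5 was higher. CSF2 (ENSG00000164400, chromosome 5, 132073789 to 132076170), the cytokine GM-CSF, had 2.63, 2.08 and 1.69 FPKM in the knockout libraries and 13, 17.1 and 20.03 FPKM in the wild-type libraries (log2 −2.96, SE 0.25). TNFSF10, the death ligand TRAIL, stood at 14.5, 15.6 and 15 FPKM against 37, 35.5 and 33.7 FPKM (log2 −1.24, SE 0.09), while TNFRSF21, a death receptor, was higher at 40.2, 39.7 and 40.9 FPKM against 18.6, 17.1 and 17 FPKM (log2 1.19, SE 0.09). In a list of interferon-induced genes all 3 listed members were lower: IFIT3 at 3.86 ± 0.105 against 9.87 ± 1.37 FPKM (log2 −1.35, SE 0.13), IFIT2 at 0.998 ± 0.1 against 2.33 ± 0.126 FPKM (log2 −1.22, SE 0.13) and APOL1, whose risk alleles are tied to kidney disease, at 0.125 ± 0.0033 against 1.68 ± 0.374 FPKM (log2 −3.74, SE 0.23). The immunoproteasome subunit genes PSMB9 and PSMB10 were lower at log2 −1.08 and −1.11. CLEC4E, a pattern receptor, and CSF1R, the receptor of macrophage colony-stimulating factor, stood at 2.95 ± 0.419 against 6.8 ± 0.435 FPKM and 0.369 ± 0.143 against 1.07 ± 0.141 FPKM. The leukotriene receptor gene LTB4R (1.26, 0.569 and 1.38 FPKM against 2.35, 1.5 and 3.42 FPKM) lost its call without WT replicate 3 (log2 −0.85). The cytokine receptor gene IL10RB (1.39, 1.85 and 3.02 FPKM against 2.37, 5.64 and 5.32 FPKM) lost its call without KO replicate 1 or 2 or WT replicate 2 or 3 (log2 −0.87 to −1.01). In prostaglandin handling the synthase gene PTGES was higher (15.2, 14.1 and 17.3 FPKM against 5.89, 6 and 6.64 FPKM, log2 1.33, SE 0.12) and the uptake transporter gene SLCO2A1 lower (6.13, 5.75 and 5.86 FPKM against 13.2, 12.8 and 12.5 FPKM, log2 −1.12, SE 0.09).

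From a list of lipid handling, lipoprotein and fatty acid oxidation genes 8 are listed, 5 higher (APOE, LIPG, PLA2G15, APOC1, PLIN4) and 3 lower (APOLD1, the pseudogene PLA2G12AP1 and APOL1), with a median log2 fold change of 1.01. This is close to the whole table, where 57% of tested genes were higher and the median was 1.06. APOE (ENSG00000130203, chromosome 19, 44905791 to 44909393), an apolipoprotein that carries cholesterol, stood at 23.8, 23.8 and 22.1 FPKM in the knockout libraries and 4.16, 4.45 and 5.19 FPKM in the wild-type libraries (log2 2.33, SE 0.12). Its neighbour APOC1 had 2.71, 2.48 and 2.6 FPKM against 1.03, 1.63 and 1.18 FPKM (log2 1.02, SE 0.20). The lipase gene LIPG was higher by log2 1.0, PLA2G15, a lysosomal phospholipase, by 1.32 and the lipid droplet coat gene PLIN4 by 1.35. APOLD1, an apolipoprotein domain gene of endothelial cells, was lower at 0.845 ± 0.173 against 2.21 ± 0.956 FPKM (log2 −1.39, SE 0.37), and APOL1 showed the widest difference of the list (log2 −3.74). Outside the list and chosen after their values were seen, the lipase gene LIPH was higher (log2 1.05) and RBP7, a retinol-binding protein, lower (log2 −1.04). TTPAL had 1.55, 7.55 and 1.61 FPKM against 1.26, 1.34 and 1.25 FPKM, so its place in the list came from KO replicate 2, and without that library its log2 fold change was 0.3.

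From a list of aldehyde, cytochrome P450 and other drug metabolism genes 5 are listed, 4 higher (CYP27A1, UGT1A9, DHRS3, UGT1A8) and 1 lower (NNMT), with a median log2 fold change of 1.33. Among all tested genes 57% were higher, with a median of 1.06. CYP27A1, which makes oxysterols, stood at 10.1 ± 1.7 against 4.89 ± 0.456 FPKM (log2 1.04, SE 0.15) and DHRS3, a retinal reductase, at 2.59 ± 0.247 against 1.03 ± 0.274 FPKM (log2 1.33, SE 0.22). The glucuronosyltransferase gene UGT1A9 had 3.5, 4.21 and 4.29 FPKM against 1.13, 0.583 and 0.516 FPKM (log2 2.44, SE 0.30). UGT1A8 had 58, 81 and 82 reads against 0, 0 and 15 (log2 3.89, SE 0.78, 9.18 without WT replicate 3). The UGT1A genes share their last exons, so reads cannot be assigned to one of them with certainty. NNMT, which methylates nicotinamide with S-adenosylmethionine, had 4.08, 3.73 and 3.76 FPKM in the knockout libraries and 17, 13.3 and 19.7 FPKM in the wild-type libraries (log2 −2.11, SE 0.16). NNMT is the only listed gene of 30 in a list of protein repair and methyl cycle genes, and AS3MT, the arsenic methyltransferase, was lower too (log2 −1.77). Further lower genes of small-molecule metabolism lie outside the drug metabolism list and were grouped here after their values were seen. The metallothionein gene MT1A stood at 0.569 ± 0.241 against 3 ± 0.813 FPKM (log2 −2.34, SE 0.40), the carbonyl reductase gene CBR3 at 3.63 ± 0.815 against 13 ± 3.31 FPKM (log2 −1.84, SE 0.25) and NT5E, the ectonucleotidase CD73, at 2.95 ± 0.308 against 6.25 ± 0.718 FPKM (log2 −1.08, SE 0.13). GUSB, a lysosomal glucuronidase often used as a reference gene, was lower with 4.74, 4.45 and 5.06 FPKM against 10.7, 11 and 13.3 FPKM (log2 −1.3, SE 0.12).

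Transport genes were divided. Of 8 listed solute carrier entries 4 were higher (SLC7A11, SLC4A4, SLC40A1, SLC16A14) and 4 lower (SLCO2A1, SLC26A2, SLC22A4 and the antisense gene SLC9A3-AS1), and of 6 listed channel genes 4 were higher and 2 lower (KCNK15, TRPM2). SLC4A4, the basolateral sodium bicarbonate cotransporter of the proximal tubule and the only listed gene of 48 in a proximal tubule list, stood at 2.94, 3.89 and 3.82 FPKM against 1.57, 1.42 and 1.08 FPKM (log2 1.39, SE 0.18). SLC7A11, the cystine importer that feeds glutathione synthesis, had 3.82 ± 0.402 against 1.76 ± 0.209 FPKM (log2 1.12, SE 0.14), and the iron exporter ferroportin (SLC40A1) 2.32 ± 0.248 against 0.82 ± 0.261 FPKM (log2 1.5, SE 0.24). KCNK15, a background potassium channel gene, was lower with 4.37, 4.12 and 3.79 FPKM against 16, 16.5 and 17.7 FPKM (log2 −2.03, SE 0.11), whereas KCNK2 of the same family was higher (log2 1.12). SLC26A2, a sulphate transporter needed for proteoglycans, and SLC22A4, a carnitine and ergothioneine transporter, were lower at log2 −1.34 and −1.32. Among receptors NPR1, which binds natriuretic peptides, was higher with 15.4, 15.8 and 16.1 FPKM against 5.81, 5.33 and 6.63 FPKM (log2 1.41, SE 0.11).

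Among transcription factors, a list of homeobox and related developmental genes has 4 listed members, 2 higher (FOXC2, SIX2) and 2 lower (HOXA11, NKX2-2). FOXC2, a mesenchymal forkhead factor, stood at 15.6, 13.6 and 15.3 FPKM against 3.3, 4.53 and 4.05 FPKM (log2 1.91, SE 0.15), and SIX2, which maintains nephron progenitors, at 3.54, 2.92 and 2.29 FPKM against 1.38, 1.35 and 0.999 FPKM (log2 1.23, SE 0.23). CEBPA, a differentiation factor, was higher by log2 1.15. NKX2-2, a neural and islet factor, had 1, 0 and 0 reads in the knockout and 41, 20 and 51 in wild type, so it was close to undetected in the knockout. HOXA11, which acts in nephron formation, and NFE2L3, a relative of NRF2, were lower at log2 −1.16 and −1.37. Zinc finger genes, most of them transcriptional repressors of unknown targets, were higher in 12 of 16 cases (median log2 fold change over the list 1.16), beside 57% of all tested genes, by log2 1.01 to 1.73. The upper end belongs to ZNF548, whose groups overlapped and whose call was lost without KO replicate 1 or 2 or WT replicate 2 or 3 (log2 1.37 to 1.74).

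**Figure D3:**
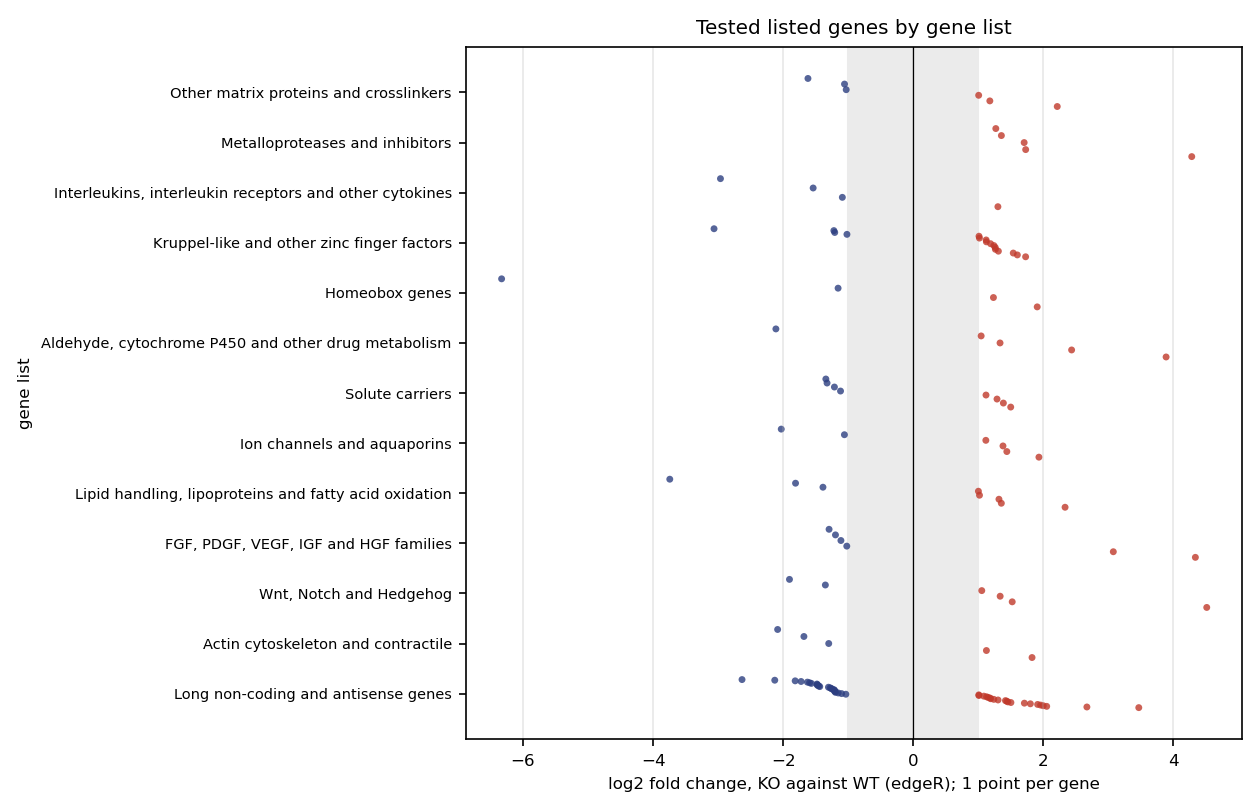
Log2 fold change of knockout against wild type (x axis) for each tested gene of the 13 gene lists that hold at least 4 listed genes (y axis), 1 point per gene, red for higher and blue for lower. The grey band marks the range the listing left out. The metalloproteinases all lie to the right, the zinc finger genes divide into 12 higher and 4 lower, and the solute carriers into 4 and 4.

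The largest differences outside these lists included genes of general cell functions. EXOSC6, a subunit of the RNA exosome, had 13.3, 2.45 and 11.5 FPKM in the knockout libraries and 0.126, 0.161 and 0.19 FPKM in the wild-type libraries (log2 5.81, SE 0.73), and KO replicate 2 stood well below the other two knockout libraries. SNAPC1, a factor for transcription of small nuclear RNA genes, had 26.2, 26.3 and 26.5 FPKM against 60.01, 57.5 and 58.9 FPKM (log2 −1.16, SE 0.08), with some of the smallest spreads in the table. NPM3, a histone chaperone, AIMP2, a scaffold of the aminoacyl-tRNA synthetase complex, and PEX6, a peroxisome assembly ATPase, were lower at log2 −1.09, −1.2 and −1.15. CCDC8, a partner of the growth disorder protein CUL7, was higher with 6.17, 5.56 and 7.3 FPKM against 0.785, 0.897 and 1.15 FPKM (log2 2.74, SE 0.20). The growth arrest gene GADD45G stood at 3.45, 3.87 and 2.69 FPKM against 0.201, 0.602 and 1.48 FPKM (log2 2.1, SE 0.54, 3.03 without WT replicate 3).

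Further genes with large differences have roles that are less settled in kidney cells. Higher in the knockout were SRRM3, a neural splicing regulator (1.06 ± 0.109 against 0.124 ± 0.0343 FPKM, log2 3.08, SE 0.23), IGFBPL1, a relative of insulin-like growth factor binding proteins (5.66 ± 0.84 against 0.67 ± 0.0581 FPKM, log2 3.08, SE 0.18), BCAS1 (1.79 ± 0.53 against 0.193 ± 0.11 FPKM, log2 3.22, SE 0.43) and EPPK1, which encodes the cytolinker epiplakin (1.2 ± 0.0629 against 0.168 ± 0.0186 FPKM, log2 2.83, SE 0.13). GNGT2, a G protein γ subunit gene, was at 2.58 ± 0.426 against 0.346 ± 0.241 FPKM (log2 2.88, SE 0.43, 3.54 without WT replicate 2). NPIPA8 was at 7.82 ± 1.56 against 1.21 ± 0.229 FPKM (log2 2.69, SE 0.22) and belongs to a family of nearly identical copies, so its value is uncertain. Lower were TRABD2A, an inhibitor of Wnt ligands (0.562 ± 0.0831 against 2.23 ± 0.0773 FPKM, log2 −1.99, SE 0.14), CRYBG1 (0.539 ± 0.0178 against 2.12 ± 0.218 FPKM, log2 −1.97, SE 0.13), the chitin-binding receptor gene FIBCD1 (0.37 ± 0.105 against 1.42 ± 0.26 FPKM, log2 −1.94, SE 0.25) and CAMK2N1, an inhibitor of calcium/calmodulin-dependent kinase II (1.31 ± 0.197 against 4.68 ± 0.849 FPKM, log2 −1.84, SE 0.20).

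Other pathway lists were thinly represented. No gene was listed from p53 targets (0 of 30), glycolysis and hypoxia (0 of 42), the EGF family (0 of 18), loop of Henle and distal tubule (0 of 18), podocyte (0 of 12) or endothelium (0 of 16), nor from the mitochondrially encoded, nuclear respiratory chain and germline lists. Of the collecting duct list 1 of 20 was listed (KRT7), of the leukocyte list 1 of 26 (CSF1R), and of the tubular injury list 2 of 26, KRT7 higher and ITGB6 lower. Of 27 mesenchymal transition genes 3 were listed, FOXC2 higher and NT5E and ACTA2 lower, and of 38 genes of the BMP list BAMBI alone. Of 51 cell cycle genes CCND1 and CCNA1, a cyclin known from germ cells, were higher (log2 1.33 for CCNA1). Of 35 integrated stress response genes SLC7A11 was higher and PSPH, an enzyme of serine synthesis, lower (log2 −1.04), and of 51 NRF2 genes SLC7A11 alone was listed. Each such count covers listed genes only.

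Smaller families followed no common direction. The calcium-binding genes S100A1 and EFHD1 were higher by log2 1.42 and 1.87, and the protease-activated receptor gene F2RL2 was lower at −1.55. Of histone genes H2AC20 was higher and H2AC11 lower (log2 1.69 and −1.21), and the co-chaperone gene DNAJC12 was lower (−1.24). The cytokine and chemokine receptor genes IL4R and CXCR5 were higher (log2 1.3 and 1.67) and TNFRSF9 lower (−1.09). Among channels and pumps CACNA1H, KCNJ2 and ATP2B4 were higher (log2 1.38, 1.44 and 1.21) and TRPM2 lower (−1.06).

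Non-coding genes were listed in both directions. Of 39 long non-coding RNA genes 15 were higher and 24 lower, and of 10 processed pseudogenes 5 and 5. In the whole list 215 of 379 genes were higher. The small nucleolar RNA host genes SNHG4 and SNHG18 were lower at 2.51 ± 0.173 against 5.8 ± 0.918 FPKM (log2 −1.21, SE 0.15) and 1.15 ± 0.219 against 4.05 ± 0.405 FPKM (log2 −1.82, SE 0.19). HIF1A-AS3, antisense to HIF1A, stood at 1.75 ± 0.223 against 4.86 ± 1.33 FPKM (log2 −1.47, SE 0.25). No strand setting was given in the sources used here, so reads of antisense genes and of their partners may not be separable. MIR3648-1, a microRNA gene in ribosomal RNA sequence, stood at 20.4 ± 1.7 against 8.4 ± 1.26 FPKM (log2 1.27, SE 0.20).

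Some entries rested on 1 library. BLOC1S5-TXNDC5, a read-through gene, had 0.0228, 0 and 0 FPKM in the knockout libraries and 0, 0 and 103 FPKM in the wild-type libraries, so a single wild-type library gave the whole difference and without it the knockout mean was the higher one. AP002990.1 had 58.6, 5.46 and 3.81 FPKM against 1.53, 3.41 and 5.7 FPKM, and its log2 fold change went from 2.67 to 0.38 without KO replicate 1. HNRNPA1P48 had 10.05, 9.75 and 9.68 FPKM against 10.4, 13.2 and 80.6 FPKM and went from −1.82 to −0.26 without WT replicate 3. ATP6V1C2, a proton pump subunit, had 0.081, 0.0308 and 0.0329 FPKM against 3.32, 0.0324 and 4.25 FPKM, with WT replicate 2 at the knockout level. Among genes without a read in any library of a group, UPK3BL1 (0, 6.11 and 0.157 FPKM against 0, 0 and 0 FPKM), AL358472.7 (0, 8.91 and 0 FPKM against 0, 0 and 0 FPKM) and RPL19P16 (5.99, 0 and 0 FPKM against 0, 0 and 0 FPKM) had all or nearly all of their level from 1 knockout library, and AL136295.1 had 0, 0 and 0 FPKM against 4.18, 0 and 2.86 FPKM. A few coding genes fell into separate levels within the knockout: RTL8C with 61.9, 24.8 and 59.2 FPKM and SRPRB, a signal recognition particle receptor subunit, with 16.5, 6.81 and 15.4 FPKM had KO replicate 2 at the wild-type level (22.2, 23.8 and 25.8 FPKM and 5.74, 6.49 and 6.95 FPKM), and both lost their calls without KO replicate 1 or 3 or WT replicate 1 (log2 0.80 to 0.97). NIPSNAP1, a mitochondrial protein, and CDKN2AIP, a p53 pathway gene, instead had KO replicate 1 near the wild-type level, with 12.4, 32.5 and 33.3 FPKM and 10.4, 37.3 and 36.1 FPKM in the knockout, and CDKN2AIP lost its call without any 1 of the other 5 libraries. Of the 365 tested genes 21 lost their call when some 1 library was left out, and 14 moved by more than 1.5 times.

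The position of the listed genes was not used by the listing, and their directions were not spread evenly over the genome. On chromosome 19, 35 of 40 listed genes were higher in the knockout. From CEBPA to the last listed gene (33299934 to 58431148, on the long arm) 33 of 34 were higher, with a median log2 fold change of 1.23. APOE, APOC1, the gonadotropin genes and the zinc finger genes of that arm are all in this run, and RPS10P28, a ribosomal protein pseudogene, was the exception (log2 −2.75, SE 0.54, −3.36 without KO replicate 1). On chromosome 7, 21 of 31 were lower. All 18 genes from AMZ1 to NSUN5 (2679522 to 73308826) were lower, with a median of −1.16 and a range from −3.06 to −1.0, and from CLDN3 on 10 of 13 were higher. On chromosome 21 the first 3 listed genes, in the ribosomal RNA region, were higher, and all 9 from C21orf91 to C21orf58 (17788974 to 46323875) were lower, IL10RB, RCAN1, CBR3, TRPM2 and ITGB2 among them. Chromosomes 5 and 10 had 19 of 24 and 19 of 25 listed genes lower, and chromosomes 1 and 9 had 31 of 40 and 10 of 12 higher.

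**Figure D4:**
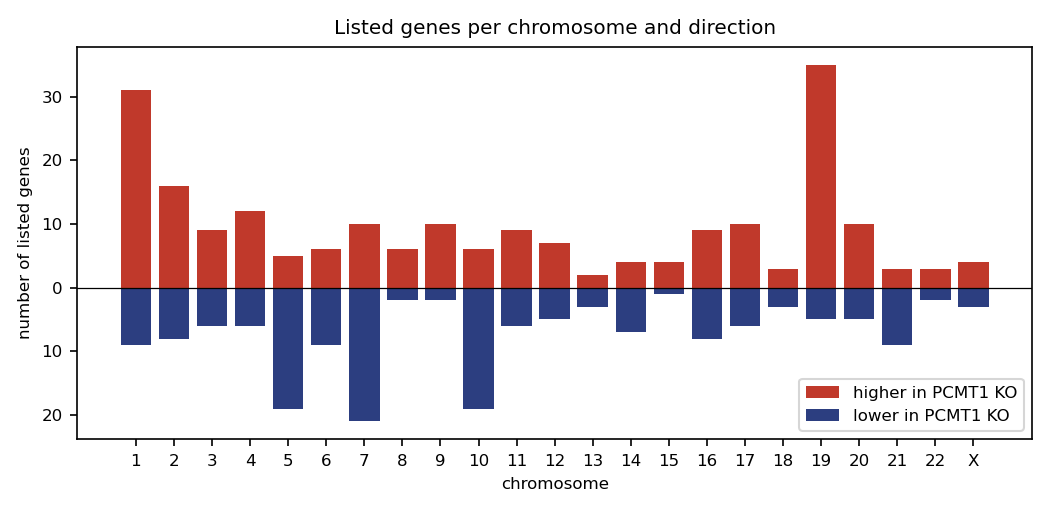
Number of listed genes (y axis) that were higher (red, upward) and lower (blue, downward) in the knockout on each chromosome (x axis). Chromosome 19 has 35 higher and 5 lower genes, while chromosomes 5, 7 and 10 have more lower than higher genes (19, 21 and 19).

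These segments were chosen after their values had been seen and were not tested. In all genes of the list 215 of 379 were higher. Genes of one kind that lie in such a run (the 5 gonadotropin genes, and 12 of the 16 zinc finger genes, which are on chromosome 19 and higher) share their position as well as their function, and the part of position in the list counts was not tested.

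**Figure D5:**
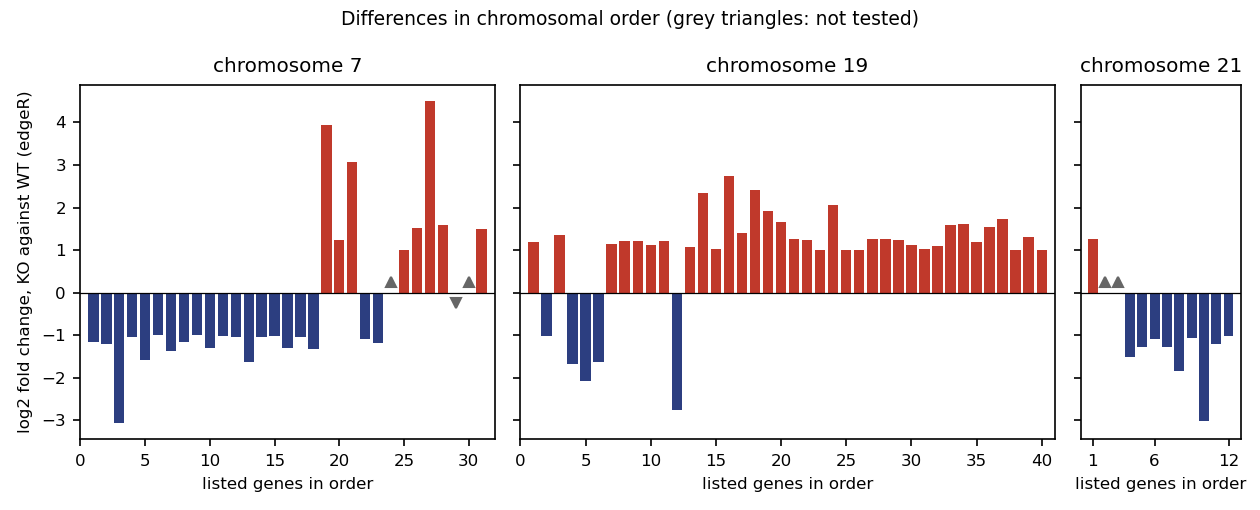
Log2 fold change (y axis) of the listed genes of chromosomes 7, 19 and 21 in their order along the chromosome (x axis, rank), with red bars for higher, blue bars for lower and grey triangles for genes that were not tested. On chromosome 7 the first 18 genes are all lower, on chromosome 19 the last 34 are higher with 1 exception, and on chromosome 21 the last 9 are all lower.

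The HK-2 list was then set against mouse kidney, by symbol. In mice 229 of the 379 symbols had a tested gene in the obstruction experiment, where tKO was compared with fl/fl kidneys after unilateral ureteral obstruction (UUO) and after sham surgery, each group with 3 libraries and DMSO as vehicle. The labels do not spell out tKO. Whole kidney holds many cell types, and fewer cells of a type and less RNA per cell cannot be told apart. After UUO, 46 of the 229 genes differed by edgeR (20.1%), beside 17.9% of all genes. After sham surgery 32 differed (14%), beside 12.3%. These shares were close to the background, and the directions were mixed: of the genes higher in HK-2 knockout 15 were higher and 11 lower in tKO UUO kidneys, and of those lower in HK-2 9 were higher and 11 lower. After sham surgery the counts were 9 and 10, and 8 and 5. With column totals as library sizes the 46 calls after UUO, 24 higher and 22 lower, became 8 and 4, and the 32 after sham surgery, 17 higher and 15 lower, became 3 and 5.

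Among single genes after UUO, Htra3 was higher in tKO (21.6 ± 4.06 against 6.81 ± 1.73 CPM, SD, n = 3, log2 1.67, SE 0.24, edgeR adjusted p = 0.00128), while HTRA3 was lower in HK-2 knockout cells. Myo5b was lower (47.1 ± 3.21 against 99.9 ± 6.88 CPM, log2 −1.09, SE 0.14, edgeR adjusted p = 0.000668) and MYO5B higher in the cells. Sgk2, a gene of the SGK kinase family, was lower as well (log2 −0.95, edgeR adjusted p = 0.0043), against a higher SGK2 in the cells. The direction seen in HK-2 was shared by Gngt2, a G protein γ subunit gene (log2 1.85, SE 0.24, edgeR adjusted p = 0.00071), Crip1, a LIM domain gene (log2 1.39, SE 0.21, edgeR adjusted p = 0.00143), and Kcnk2 (log2 1.5, SE 0.31, edgeR adjusted p = 0.00614). With column totals in place of TMM scaling Myo5b missed the threshold (log2 −1.06, edgeR adjusted p = 0.0556), and the other 5 kept their calls. Mitochondrially encoded genes took 9.88% to 16.2% of counts in tKO and 7.43% to 7.67% in fl/fl UUO libraries, and their part in these differences was not tested.

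After sham surgery, Tgfbi was higher in tKO (20.9 ± 5.62 against 8.14 ± 0.472 CPM, SD, n = 3, log2 1.34, SE 0.22, edgeR adjusted p = 0.00471) and so was Egr1 (84.2 ± 56.0 against 5.51 ± 2.99 CPM, log2 3.93, SE 0.55, edgeR adjusted p = 0.00209), both lower in the cells. Plxdc2 was lower (log2 −0.65, edgeR adjusted p = 0.00779) and PLXDC2 higher in the cells. Col14a1 and Bcl6 were higher in both systems (log2 2.23 and 1.71, edgeR adjusted p = 0.00209 and 0.00471). Pcmt1 stood at 49.3 CPM in the library labelled tKO sham replicate 1, above the 42.8 to 48.9 CPM of the fl/fl sham libraries, where the other two had 22.7 and 24.3 CPM. Without it Tgfbi, Egr1, Plxdc2, Col14a1 and Bcl6 kept direction and call (Egr1 log2 4.37, Tgfbi log2 1.47). Mitochondrially encoded genes took 33.7% to 69.5% of counts in tKO and 30.8% to 35.5% in fl/fl sham libraries, and with column totals Tgfbi (log2 0.96, edgeR adjusted p = 0.0632), Bcl6 (log2 1.39, edgeR adjusted p = 0.0589) and Plxdc2 (log2 −0.92, edgeR adjusted p = 0.0753) missed the threshold. These 2 mouse comparisons were fitted on the same 18 libraries, those with LY2109761 among them, and share 1 estimate of the spread.

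Fn1 can be set beside the cells as well. After UUO, Fn1 stood at 269 ± 26.6 CPM in tKO and 154 ± 30.2 CPM in fl/fl libraries (SD, n = 3, log2 0.81, SE 0.37, edgeR adjusted p = 0.140), and after sham surgery at 92.0 ± 55.8 against 24.2 ± 12 CPM (log2 1.92, SE 0.38, edgeR adjusted p = 0.00952). Fn1 was picked for its place in the HK-2 list after its values had been seen. Its values with column totals or without tKO sham replicate 1 are not given here. Fn1 is therefore not shown to be firmer than the genes above.

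The authors' list for whole kidneys of Pcmt1 knockout mice (410 genes, 4 against 4 libraries) shares 4 symbols with the HK-2 list, 1.06% of the HK-2 list and 0.976% of the kidney list. Of the 382 genes tested in that list 66.8% passed (177 higher and 78 lower, or 34 and 123 with TMM on the listed genes), and of the 4 shared genes 3 did (75%), which follows from the selection. Ugt1a9 stood at 23.2, 192, 180 and 219 FPKM in the knockout kidneys and 16.5, 11.6, 28.7 and 19.4 FPKM in the wild-type kidneys (log2 3.01, SE 0.59, edgeR adjusted p = 0.0140), higher as in HK-2 but with 1 knockout kidney in the wild-type range. Rasgrp1 had a log2 fold change of 0.75 (SE 0.32, edgeR adjusted p = 0.0544) and did not pass. Acta2 had 80.0, 29.3, 43.7 and 41.6 FPKM against 23.5, 25.7, 28.7 and 28.3 FPKM (log2 0.87, SE 0.32, edgeR adjusted p = 0.0402), higher where ACTA2 was lower in HK-2 knockout cells. Its call was lost without 7 of the 8 libraries in turn (all but KO replicate 2, log2 0.52 without KO replicate 1), with TMM on the listed genes (log2 0.56, edgeR adjusted p = 0.136) and with the replicate number as a block (log2 0.77, edgeR adjusted p = 0.0834).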

How the data were processed

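RNA was measured by sequencing in 3 libraries of HK-2 PCMT1 knockout and 3 of wild-type cells, with 8 mouse whole-kidney libraries and 18 of an obstruction experiment for comparison. The deposited tables give raw counts per gene and FPKM as made by the authors. Tools listed without roles in the submitters' processing notes are HISAT2, StringTie and fastp, and builds are GRCh38 (hg38) and GRCm38 (mm10). The counting step, strand setting and annotation are not given in the sources used here. HK-2 coordinates are those of the deposited table.

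The HK-2 and whole-kidney tables list selected genes only, so library depth was recovered from counts and FPKM, as a depth at which gene lengths came out close to whole. In the HK-2 libraries 77% to 89.5% of short genes then had lengths whole within 0.02 bases. In the complete obstruction table, depth recovered this way matched the column totals to a relative error of at most 1.73e-07. Counts were tested with edgeR 4.0.16 (quasi-likelihood, R 4.3.3) at the recovered depth, without further scaling, after edgeR's default low-count filter by group, with Benjamini-Hochberg adjustment over all tested genes. The whole-kidney list was tested the same way. The obstruction table was fitted over 18 libraries in 6 groups with TMM. The groups were fl/fl and tKO, each after sham surgery, UUO, and UUO with LY2109761. Mouse genes were matched to human genes by symbol. DESeq2 1.42.0, limma 3.58.1 on log2(FPKM + 1) and log2(FPKM + 0.1), other scalings, no filter, a replicate block and leaving out each library were alternatives.

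Genes were named by rule: the 15 largest differences in each direction without overlap and with a mean of at least 5 CPM, the 10 highest levels in each direction, up to 8 members of each of 55 pathway lists, genes with 0 counts in a group and a mean of at least 1 CPM in the other, genes shared with the kidney list, and 6 genes per mouse comparison by smallest p. Other genes were named for their function after the values were seen. Directions were also counted over function groups made after the values were seen. Of these counts, those for proteases with their inhibitors and for neuronal and guidance genes are given, as a description. Members, lists and segments were chosen with earlier results of these data known.

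Same-numbered HK-2 libraries did not deviate together (correlations −0.08, 0.02 and −0.08), so the replicate numbers were not treated as pairs. Results for some genes that the rules name are not reported here.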

Additional observations from a re-analysis of the deposited data

Results flagged for a closer look

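ACTA2, the smooth muscle actin gene, differed in opposite directions in the cells and in whole kidneys. Every HK-2 knockout library lay below every wild-type library (log2 −2.08), and every Pcmt1 knockout kidney lay above every wild-type kidney (log2 0.874). The kidney groups nearly met, at 29.3 FPKM in KO replicate 2 and 28.7 FPKM in WT replicate 3. The kidney call was lost without KO replicate 1 (log2 0.52, edgeR adjusted p = 0.0963). It was also lost with TMM on the listed genes (log2 0.56, edgeR adjusted p = 0.136) and in most other fits without 1 library. The difference between the systems was not tested. The levels were far apart: 0.242 ± 0.186 against 1.03 ± 0.0874 FPKM in the cells (SD, n = 3) and 48.7 ± 21.9 against 26.5 ± 2.45 FPKM in the kidneys (SD, n = 4), where cell types were mixed.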

How the results depend on the processing

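No HK-2 gene tested both in the reported fit and under an alternative changed direction. Leaving out 1 library covered 366 to 369 of the 379 listed genes. In mean FPKM over all 379, 4 genes no longer showed their listed direction: RPL19P16 without KO replicate 1, AL358472.7 without KO replicate 2, and BLOC1S5-TXNDC5 and AC026464.2 without WT replicate 3. Higher calls went from 208 to 103 with RLE on the listed genes, so that they made up 39.5% and not 57.0% of all calls. This scaling and the others made on a list selected for change move with the list itself. The replicate block gave 204 higher and 156 lower calls, and the replicate numbers did not pair the libraries. Leaving out 1 library gave 202 to 204 higher and 150 to 157 lower calls.

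Among same-symbol mouse genes, column totals, an alternative chosen after seeing the data, gave 8 higher and 4 lower calls after UUO and 3 higher and 5 lower after sham surgery, and dropping the filter gave 10 higher after sham surgery. The cause was not tested. Leaving out 1 library gave 10 to 23 higher and 8 to 20 lower calls after UUO and 6 to 23 higher and 3 to 26 lower after sham surgery, the 26 without tKO sham replicate 1. The lowest counts came without fl/fl UUO replicate 1, fl/fl sham replicate 2 and tKO sham replicate 2. For the genes shared with the kidney list 1 to 3 were called higher. Over all genes, column totals left 365 higher and 317 lower calls of 1593 and 1858 after UUO, and 70 and 222 of 1109 and 1266 after sham surgery. In the kidney list the replicate block, also added after seeing the data, left 22 higher and 19 lower calls of 177 and 78.

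Levels under 1 FPKM rest on few reads, and genes outside the list were not analysed here.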
